A study of Mus musculus with 15 samples.

Results

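PU.1 binding was examined at the loci of 4 genes that mark macrophages: Csf1r, Itgam, Adgre1 and Lyz2. The members were all peaks, in 5 deposited peak lists, that shared at least 1 bp with a fixed window around each gene in mouse build mm9: chr18:61250000-61300000 for Csf1r, chr7:135190000-135270000 for Itgam, chr17:57480000-57630000 for Adgre1 and chr10:116695000-116740000 for Lyz2. The windows were set by gene and not by any measured value. They held 82 of the 167152 peaks in the 5 lists, and the peaks of the 4 lists from cells merged there into 23 of 53107 regions. Chromatin immunoprecipitation followed by sequencing (ChIP-seq) with a rabbit antibody against the N-terminus of PU.1 was done on C57BL/6 bone marrow-derived macrophages at day 7 of differentiation. All cells carried a doxycycline-inducible retroviral vector, were selected with puromycin (3 µg/ml) from day 3 and received doxycycline (0.5 µg/ml) from day 5 for 48 hours. The vector held a hairpin against PU.1 (shPU.1, 2 libraries) or one against Renilla luciferase (control, called empty in the sample titles, 2 libraries), so the controls share the infection, the drug selection and the induction. The fifth list came from a pair of libraries made on nucleosomes assembled in vitro from macrophage genomic DNA and recombinant histones, incubated with nuclear extract of macrophages after immunodepletion by either normal IgG or the PU.1 antibody. No label gives the age or sex of the mice or says whether replicates came from separate animals or cultures, so the spread between replicates may be technical.

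PU.1 is an ETS-family transcription factor required for the macrophage lineage, and it binds DNA at purine-rich sites around a GGAA core. Macrophages carry it at very many enhancers and promoters, where it is known to act together with other lineage factors. Csf1r encodes the receptor tyrosine kinase for colony-stimulating factor-1 and is a classical target of PU.1. Itgam encodes CD11b, the alpha chain of the integrin Mac-1 (complement receptor 3), Adgre1 encodes the adhesion receptor known as F4/80, and Lyz2 encodes the lysozyme that myeloid cells secrete. The lists measure where PU.1 was recovered and not how much of these genes was transcribed, and PU.1 itself was not measured, so the strength of the knockdown is unknown here.

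The control lists held 30026 and 36759 peaks, the shPU.1 lists 15122 and 27733, and the in vitro list 57512. Over the whole lists, peaks of replicate 2 had a median width of 892 bp in control and 1076 bp in shPU.1. Those of replicate 1 were narrower (435 bp and 448 bp). Inside the gene windows the groups differed more in replicate 2, with medians of 1137 bp in control and 1689 bp in shPU.1. In replicate 1 the window medians were 510 bp in control and 488.5 bp in shPU.1. Each peak has a score from the authors' peak caller, 50.0 at the lowest. A score grows with sequencing depth, which is unknown for every list, so it is given here with its percentile, the share of peaks in the same list with an equal or lower score. Percentiles in lists of different lengths show no change in binding. A merged region where each control library had a peak is called a control region, and it counts as kept where each shPU.1 library also had one, as partial where 1 of them had and as lost where neither had.

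Peaks were fewer under the hairpin in 3 of the 4 windows. At Csf1r the controls showed 8 and 7 peaks, against 3 in each library with the PU.1 hairpin. The Itgam window had 9 and 8 against 4 and 5 peaks. The Adgre1 window had 4 in each control against 1 and 3 peaks. In these windows both shPU.1 libraries lay below both controls. Among all tiles of the same length with a control peak, this held for 25.6% of the 50 kb tiles, 28.6% of the 80 kb tiles and 32.8% of the 150 kb tiles. The Lyz2 window had 2 and 4 control peaks against 2 in each shPU.1 library, so its groups met; both shPU.1 libraries lay below both controls in 24.8% of the 45 kb tiles.

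Over the 4 windows together, each control library had 23 peaks, and the shPU.1 libraries had 10 and 13. The mean fell from 23.0 ± 0.0 (SD, n = 2) to 11.5 ± 2.12 (SD, n = 2), a difference of -11.5 peaks, and the two-sided exact permutation test gave p = 0.33, the lowest value possible with 2 libraries a group. Within replicate numbers the shPU.1 library had 0.435 and 0.565 times the control peaks of the windows, against 0.504 and 0.754 times over the whole lists. With every list from cells limited to its 15122 highest-scoring peaks, the windows held 12 and 12 control peaks against 10 and 9, a difference of -2.5. This limit removes by construction any difference in peak number over the whole lists. Both shPU.1 lists were shorter than both control lists, so list length and the hairpin cannot be told apart here. In those equal lists the Csf1r window had 6 and 2 control peaks against 3 and 3, and the Itgam window 3 and 6 against 4 and 4, so the groups overlapped at both. At Adgre1, with 2 and 3 against 1 and 1, both shPU.1 libraries lay below both controls. The Lyz2 window had 1 and 1 control peaks against 2 and 1. No share over all tiles was computed for the equal lists, so these counts have no background.

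**Figure D1:**
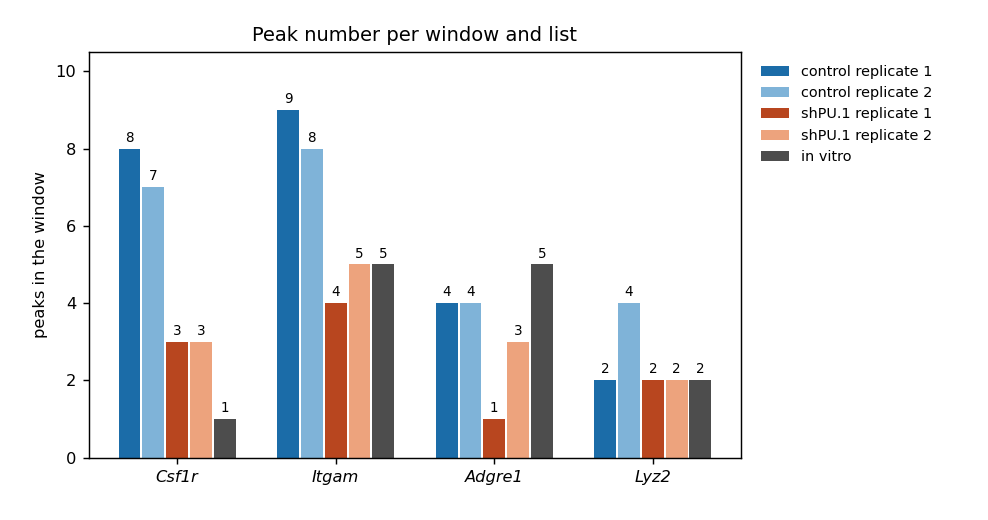
Number of deposited peaks (y axis) that share at least 1 bp with each gene window (x axis), 1 bar per list with its value on top: 2 control libraries (blue), 2 shPU.1 libraries (orange) and the in vitro list (grey). In the Csf1r window the controls have 8 and 7 peaks and both shPU.1 libraries 3, while in the Lyz2 window the shPU.1 libraries equal control replicate 1 at 2.

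The Csf1r window had many control peaks for its length, and its highest peak ranked near the top of the control lists. A 50 kb tile of the genome held 8 or more peaks of control replicate 1 in 0.205% of cases and 7 or more of control replicate 2 in 0.567%. In the shPU.1 lists its 3 peaks were reached or passed in 1.87% and 5.26% of tiles. The highest peak of the window had a score of 1642.3 in control replicate 1 and 2357.3 in control replicate 2, rank 32 of 30026 and rank 37 of 36759, or the 99.9th percentile in each. In the shPU.1 libraries the highest peak of the window scored 285.17 (rank 677 of 15122, percentile 95.5) and 985.35 (rank 868 of 27733, percentile 96.9). All 4 lists from cells thus placed their strongest Csf1r peak in the same merged region, chr18:61264708-61269196, and in the top 5 percent of peaks.

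That region was not 1 peak in every library. Control replicate 1 resolved it into 3 peaks, scoring 160.81 at chr18:61265183-61265905, 124.63 at chr18:61267209-61267597 and 1642.3 at chr18:61268055-61268789. Control replicate 2 and shPU.1 replicate 2 each covered it with a single peak, 4489 bp and 4318 bp wide. Only the last of the 3 peaks had a counterpart in shPU.1 replicate 1, at chr18:61268046-61268655, with its centre 71.5 bp away. The single in vitro peak of the Csf1r window, at chr18:61264946-61266044, lay at the other end. It scored 192.11 (percentile 75.2), its centre was 49.0 bp from that of the 160.81 peak, and it stopped 2001 bp short of the shPU.1 replicate 1 peak. The in vitro peak therefore overlapped the merged region without touching the stretch that had the highest score in control replicate 1.

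**Figure D2:**
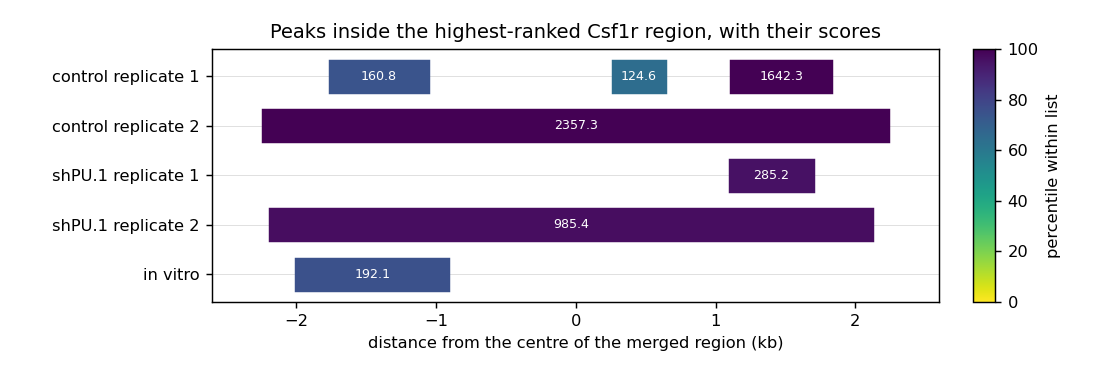
Peaks of the 5 lists (rows) inside the highest-ranked Csf1r region, drawn to scale by distance from the centre of the region in kb (x axis), coloured by percentile within the list and printed with their scores. The in vitro peak (192.1) stands over the left control replicate 1 peak (160.8), and the shPU.1 replicate 1 peak (285.2) over the right one (1642.3).

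The Csf1r window had 2 further control regions, both kept. At chr18:61279184-61281819 the scores in the controls were 548.02 and 928.87 (percentiles 97.4 and 97.5), and with the hairpin 192.28 and 703.43 (percentiles 89.8 and 94.4). At chr18:61290681-61292396 the controls had 197.02 and 148.14 (percentiles 80.9 and 58.5) and the shPU.1 libraries 59.32 and 129.4 (percentiles 21.0 and 61.6). The first of these ranked high in every library, while the second ranked low in shPU.1 replicate 1 and in the middle of the list of shPU.1 replicate 2. Neither held an in vitro peak. All other peaks of the window, 2 of control replicate 1 and 4 of control replicate 2, formed 6 regions seen in a single control list, with scores of 60.16 to 107.08 and percentiles of 13.7 to 44.7. Of all 53107 merged regions, 47.6% were seen in 1 list only. The drop in peak number at Csf1r thus came from these 6 regions and, in replicate 1, from control peaks inside kept regions. Those control replicate 1 peaks, scoring 160.81, 124.63 and 104.22, overlapped no shPU.1 replicate 1 peak. They lay under wider peaks of both replicate 2 lists, so merging joined them to regions that counted as kept. No merged region with a peak in both controls was absent under the hairpin.

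**Figure D3:**
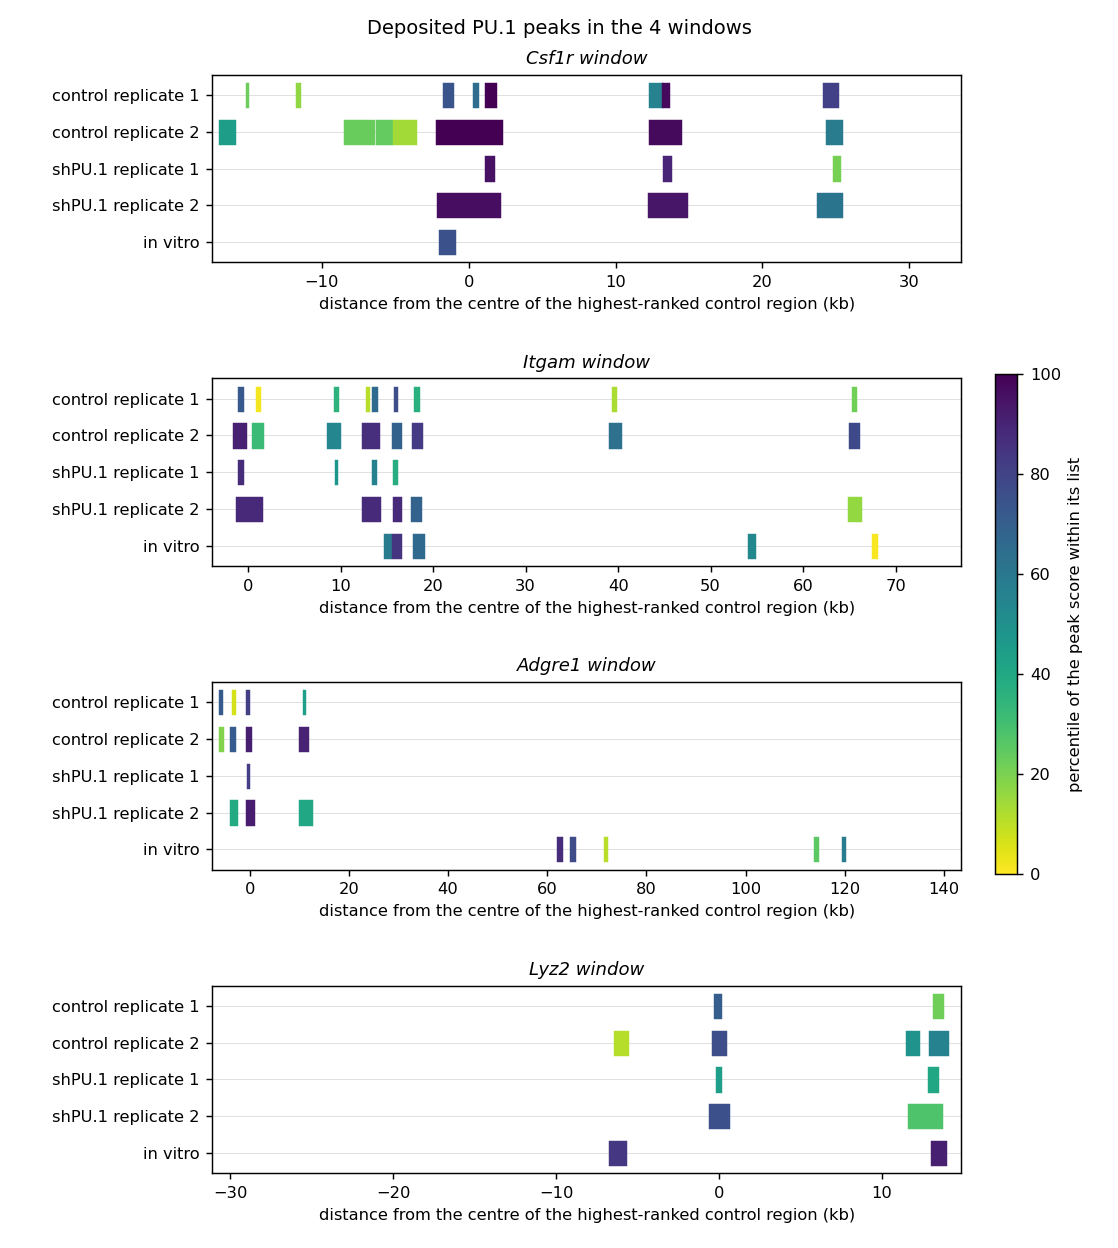
Position of every peak in the 4 windows, 1 row per list, drawn to scale by distance in kb from the centre of the window's highest-ranked control region (x axis) and coloured by the percentile of its score within its list. The 4 lists from cells share the 3 Csf1r regions on the right, and the 5 in vitro peaks of the Adgre1 window stand far from its peaks in cells.

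Itgam had the most control regions of the 4 loci, 7, of which 3 were kept, 3 partial and 1 lost. The window held 9 and 8 control peaks, numbers that 0.600% and 1.32% of the 80 kb tiles reached or passed in the same lists. Its 4 and 5 shPU.1 peaks were reached or passed in 1.70% and 2.53% of tiles. In each of the 4 lists from cells the highest Itgam peak ranked below the highest Csf1r peak. The highest reached percentiles of 76.2 and 90.9 in the controls and of 87.7 and 88.9 in the shPU.1 libraries. The lists did not agree on which peak was highest: control replicate 1 put it at chr7:135209088-135209454 and the other 3 lists in the region chr7:135191769-135194977.

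This second region had the highest mean control percentile of the Itgam window. Control scores there were 152.67 and 504.53, and shPU.1 scores 175.37 and 443.47. By score, control and shPU.1 were close to each other in each replicate number, and the replicates lay further apart than the groups. By percentile this did not hold: the controls reached 72.5 and 90.9, and the shPU.1 libraries, at 87.7 and 88.9, lay between them. A single wide shPU.1 replicate 2 peak joined 2 control regions here. With regions merged over the control lists alone, a choice made after seeing the data, the left one was kept, and the right one, at chr7:135193799-135194977, was partial. The next kept region was chr7:135205656-135207581, with control scores of 127.49 and 394.03 and shPU.1 scores of 82.29 and 422.41. The scores again followed the replicate number, and here the percentiles did too (65.4 and 86.6 in the controls, 55.5 and 88.3 in the shPU.1 libraries).

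The third kept Itgam region, chr7:135208928-135209919, had a peak in all 5 lists. Its scores were 169.26 and 195.6 (controls), 67.27 and 414.15 (shPU.1) and 276.69 (in vitro). The in vitro peak, at percentile 84.7, was the highest of the window. The shPU.1 libraries lay on both sides of the controls. The centre of the in vitro peak was 45.5 bp from that of the control replicate 2 peak and 18.5 bp from that of the shPU.1 replicate 2 peak. A second in vitro peak, scoring 147.09 at chr7:135211201-135212415, overlapped the partial region at chr7:135210962-135212126. That region scored 77.02 and 329.9 in the controls and 163.5 in shPU.1 replicate 2, and had no peak in shPU.1 replicate 1. The other 3 in vitro peaks of the Itgam window touched no peak from cells. One of these, scoring 123.76, lay 127 bp from the control replicate 2 peak of the region found in all 5 lists, and another, scoring 110.64, lay 10.0 kb from the nearest peak in cells. The weakest scored 50.5, almost the minimum of the list.

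Of the other Itgam regions, 1 was lost: chr7:135232429-135233731, scoring 58.08 (percentile 12.5) and 167.86 (percentile 63.3) in the controls. The remaining 2 were partial. At chr7:135201855-135203292 the peak was seen in shPU.1 replicate 1 (74.4, against 76.51 and 133.15 in the controls) and not in shPU.1 replicate 2. At chr7:135258256-135259658 it was seen in shPU.1 replicate 2 (57.12, against 63.84 and 269.12 in the controls) and not in shPU.1 replicate 1. These 3 regions ranked at percentiles of 12.5 to 35.7 in control replicate 1 and of 54.1 to 78.1 in control replicate 2.

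RefSeq lists a start of Itgam on GRCm38.p6, and the 250 bases before it are shown because they carry the GGAA letters that ETS factors read (capitals: GGAA or the longer GAGGAA, on either strand).
Itgam: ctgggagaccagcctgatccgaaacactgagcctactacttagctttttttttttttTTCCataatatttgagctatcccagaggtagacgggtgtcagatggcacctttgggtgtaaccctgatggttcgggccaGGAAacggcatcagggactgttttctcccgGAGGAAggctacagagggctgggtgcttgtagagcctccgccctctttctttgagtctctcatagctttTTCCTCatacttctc
This stretch is chr7:128062390-128062639 on GRCm38.p6, plus strand. Positions below are counted from -1, the base before the start. GGAA occurs 2 times on the gene's strand and 2 times on the other, and each strand has 1 of these inside GAGGAA, at -84 to -79 and, on the other strand, at -15 to -10. GGAA is found in 93.4% of the 32851 RefSeq promoters of this length and GAGGAA in 23.3%. The longer GAGGAAGT, present in 2.44%, was not found here. Peak positions are on mm9 and were not converted, so these letters are not placed against the Itgam peaks.

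In the Adgre1 window, PU.1 peaks from cells and from assembled nucleosomes did not meet. All peaks from cells lay in a stretch of 18.8 kb at the low-coordinate end of the 150 kb window, in 4 control regions. The 5 in vitro peaks lay between chr17:57548907 and chr17:57607103, each 45.2 to 58.9 kb from the nearest peak of any list from cells, inside or outside the window. The highest of them, chr17:57548907-57549882, scored 320.99 (percentile 87.7). Over the genome 20.7% of in vitro peaks shared a base with a region from cells, so most in vitro peaks elsewhere did not meet one either. The number of peaks from cells was not unusual for the length: 18.6% of the 150 kb tiles held at least as many peaks of control replicate 1, and 23.9% as many of control replicate 2.

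The region at Adgre1 with the highest mean control percentile, chr17:57486185-57487807, was the only kept one of the 4. The controls scored 200.6 and 525.43 (percentiles 81.5 and 91.5) and the shPU.1 libraries 141.39 and 563.12 (percentiles 81.8 and 91.9). The percentiles were nearly the same in control and shPU.1 for each replicate number. Farther along, chr17:57497026-57499654 scored 85.66 and 495.24 in the controls and 78.92 in shPU.1 replicate 2, with no peak in shPU.1 replicate 1. In replicate 2 its percentile was 90.6 in the control and 40.5 under the hairpin, while control replicate 1 had it at 44.4. The spread between the controls thus covered nearly all of that difference. The first region ranked almost the same in both replicate 2 lists. The partial region at chr17:57482970-57484525 scored 54.21 and 210.24 in the controls and 77.4 in shPU.1 replicate 2. The lost region at chr17:57480825-57481638 scored 150.45 and 67.39 in the controls and was the only lost or partial one of the 4 loci with a higher percentile in control replicate 1 (72.1) than in control replicate 2 (19.0).

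Lyz2 had the fewest regions, 3, and no control region of it was lost. The highest by mean control percentile, chr10:116724984-116726225, had control scores of 145.13 and 253.97 (percentiles 70.5 and 76.6) and shPU.1 scores of 72.08 and 215.31 (percentiles 44.1 and 75.7). Both groups had their higher percentile in replicate 2, and the shPU.1 replicate 1 peak stood apart as the lowest of the 4. This region held no in vitro peak.

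The second kept Lyz2 region, chr10:116737083-116739670, ranked low in cells and high in vitro. The controls gave scores of 63.97 and 138.05 (percentiles 21.9 and 55.8) and the shPU.1 libraries 69.14 and 65.22 (percentiles 40.6 and 27.9). The in vitro peak there, chr10:116738639-116739529, scored 391.6 (percentile 91.1), the highest in vitro score in the 4 windows, and its centre lay 4.5 bp from that of the control replicate 2 peak. The other in vitro peak of the window, chr10:116718880-116719913, scored 271.78 (percentile 84.3). It overlapped a single peak from cells, in control replicate 2, with a score of 59.56 (percentile 11.3). Both Lyz2 sites with a strong in vitro peak were thus among the weaker ones in cells. The highest-ranked site in cells had none.

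RefSeq places Lyz2 on the minus strand of chromosome 10, and the 250 bases before its start are given in the same way for comparison with Itgam.
Lyz2: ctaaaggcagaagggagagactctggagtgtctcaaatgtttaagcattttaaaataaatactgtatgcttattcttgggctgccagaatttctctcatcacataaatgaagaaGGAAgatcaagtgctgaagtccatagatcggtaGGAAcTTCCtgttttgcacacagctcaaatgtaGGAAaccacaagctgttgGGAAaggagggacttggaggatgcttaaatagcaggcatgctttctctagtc
This stretch is chr10:117282273-117282522 on GRCm38.p6. GGAA occurs 4 times on the gene's strand and 1 time on the other, and neither GAGGAA nor GAGGAAGT was found. Over the 32851 RefSeq promoters of this length the median was 3 GGAA matches, both strands counted. At -103 to -95 a GGAA and its reverse complement face each other with 1 base between them. How many promoters hold such a pair was not computed. As at Itgam, the letters are not placed against the peaks.

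Taken over the 4 loci, 16 of the 23 merged regions were control regions, and 9 of these were kept, 5 partial and 2 lost. Over all 21680 control regions, 40.0% were kept, 31.0% partial and 29.1% lost. Regions gained under the hairpin, those shared by the shPU.1 lists and missing from the controls, were not found at these loci and made up 0.51% of all merged regions. Of the 5 partial regions, 4 had their peak in shPU.1 replicate 2, the library with the wider and more numerous peaks. The same lean was present over the genome. Counting only shPU.1 replicate 2, 67.5% of all control regions were kept, and counting only shPU.1 replicate 1, 43.1%. No test was made of these classes, since regions are not replicates. The counts rested on the width of the peaks: with each peak trimmed to its central 200 bp, 3 of 12 control regions were kept, 4 partial and 5 lost. Over all control regions that setting gave 34.8% kept, 32.7% partial and 32.4% lost, so the kept share of the 4 loci lay above that of all regions with whole peaks and below it with trimmed ones.

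Between the controls, 21 of the 23 window peaks of replicate 1 shared a base with a replicate 2 peak, and 17 of 23 in reverse. Over the whole lists these shares were 78.6% and 60.0%. Of the 23 window peaks of control replicate 1, the first shPU.1 library matched 10 (33.2% over the whole list) and the second 18 (56.2%). Of those of control replicate 2, the first matched 10 (29.9%) and the second 15 (53.9%). Each share in the windows was above that of the whole list, also between the 2 controls. Every shPU.1 peak in the windows, 10 of 10 in replicate 1 and 13 of 13 in replicate 2, shared at least 1 bp with a peak of each control list. Over the whole lists this held for 63.7% and 53.1% of peaks. The Csf1r, Itgam, Adgre1 and Lyz2 windows therefore held no shPU.1 peak away from the control peaks.

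Among the 16 control regions the mean control percentile had a median of 68.6, with a range of 37.9 to 99.9, against a median of 61.5 over all control regions. The order of the windows by their highest control region was Csf1r (99.9), Adgre1 (86.5), Itgam (81.7) and Lyz2 (73.5). With windows narrowed by 10 kb on each side, the highest regions of Adgre1 and of Itgam fell outside, and Adgre1 came last. The mean percentile of the highest control peak was then 67.5 at Adgre1, against 81.4 at Itgam and 73.5 at Lyz2. At Itgam this value joined peaks of different regions, at 76.2 in control replicate 1 and 86.6 in control replicate 2. The highest region left there had a mean control percentile of 76.0. Only Csf1r was clear of the spread between replicates: the 2 controls gave percentiles of 81.5 and 91.5 for the Adgre1 region, 72.5 and 90.9 for the Itgam region and 70.5 and 76.6 for the Lyz2 region. The Itgam values overlapped both of its neighbours in that order. In the 9 kept regions, the mean shPU.1 percentile minus the mean control percentile had a median of -4.60 (range -28.4 to 6.65), against -2.78 over all kept regions. This difference has no firm sign, since it was 12.2 with equal list lengths (4.36 over all kept regions). Without shPU.1 replicate 1 it was 0.65, against 1.16 over all kept regions.

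**Figure D4:**
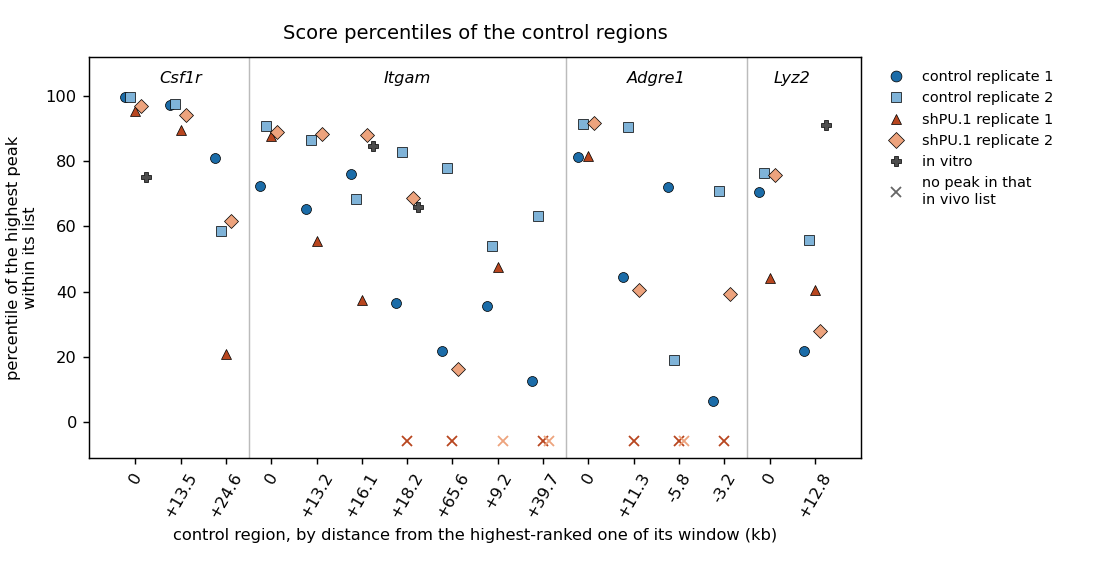
Percentile of the highest peak within its list (y axis) for the 16 control regions, ordered within each gene by mean control percentile and labelled by their distance in kb from the highest-ranked one (x axis). Each symbol is 1 list, and a cross under the axis zero marks a list from cells without a peak there. The first 2 Csf1r regions sit at 89.8 or above in all 4 lists from cells, while several Itgam regions range widely between libraries.

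In vitro peaks numbered 13 in the 4 windows: 1 at Csf1r, 5 at Itgam, 5 at Adgre1 and 2 at Lyz2. Of these, 5 shared a base with a region from cells (20.7% over the genome) and 4 with a control region (10.6% over the genome). Seen from the other side, 4 of the 16 control regions held an in vitro peak, 1 at Csf1r, 2 at Itgam, none at Adgre1 and 1 at Lyz2, a share near the 27.6% of all control regions. A peak in all 5 lists was found in 3 control regions, 1 each at Csf1r, Itgam and Lyz2, against 15.8% of all control regions. These 3 were among the 9 kept regions, and over the genome 39.5% of kept regions held an in vitro peak. In the Csf1r region the in vitro peak stopped 2001 bp short of the shPU.1 replicate 1 peak. The 2 met there only through the wide replicate 2 peaks. The in vitro list has no replicate. After a shift of the in vitro peaks by 50 kb, 1 of the 16 control regions still held one, and no share over the genome was computed for that shift. With peaks trimmed to 200 bp, 2 of 12 control regions held one, against 24.8% of all control regions.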

How the data were processed

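Each peak of the deposited BED files carries a score from the authors' peak caller. The submitters' processing notes name Bowtie 0.12.7, MACS 1.4 and mm9; their parameters were not given in the sources used here. Per the file names, libraries from cells were each compared with an input, and the IgG-depleted in vitro library with the PU.1-depleted one. Depth is unknown for every list, and the 9 micrococcal nuclease samples were not analysed here.

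Start coordinates were converted to count from 1. Peaks were merged where they shared at least 1 bp, with Python 3.11.15, and the code was tested on simulated lists. Peaks in those lists were kept well apart, so the test did not cover wide peaks that join several narrow ones. Tiles were consecutive stretches of the window's length over the autosomes and X. Peak numbers were compared by an exact permutation test over libraries. Values are given for all 4 loci and, by rule, for the highest-ranked, lost and 5-list regions. The other kept and partial regions were described in addition to that rule. The genes, windows and tests were chosen with earlier results of these data known. No mm9 annotation was used here, so peaks are not placed in exons, introns or promoters. Promoter sequences are from RefSeq on GRCm38.p6, where 2 of the 4 genes matched. Sequences of chromosome 18, where Csf1r lies, were left out of this match. Alternatives changed the minimum score, peak width, list length, libraries, windows, overlap and replicate block.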

Additional observations from a re-analysis of the deposited data

How the results depend on the processing

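The fall in peak number over the 4 windows kept its direction under every alternative tried, from -14 peaks with windows widened by 10 kb to -2.5 with equal list lengths; leaving out 1 library gave -13 to -10 peaks. At Lyz2 alone the difference of -1 peak turned to 0.5 with equal list lengths. Of 16 control regions 9 were kept, 5 partial and 2 lost. With a minimum score of 100, 4 of 8 were kept and 0 lost (32.3% kept and 31.3% lost over the genome). With peaks trimmed to 200 bp, 3 of 12 were kept and 5 lost (34.8% and 32.4%). With equal list lengths 7 of 7 were kept, 0 partial and 0 lost (58.7%, 22.2% and 19.2%). With windows narrowed by 10 kb 5 of 10 were kept and 1 lost (40.0% and 29.1%). Leaving out 1 library gave 9 to 13 kept and 3 to 7 lost of 16 to 21 regions, since fewer lists then have to show a peak. Over the genome 26.9% to 67.5% were then kept and 32.5% to 56.9% lost. Regions merged over the control lists only gave 9 kept, 6 partial and 2 lost (39.7%, 31.6% and 28.7% over the genome). Control regions with an in vitro peak numbered 4 of 16 (27.6% over the genome), 2 of 8 with that minimum score (21.5%), 2 of 12 with trimmed peaks (24.8%) and 2 of 7 with lists of equal length (33.0%). With in vitro peaks shifted by 50 kb they numbered 1 of 16, and no share over the genome was computed for that shift. The mean top percentile of the windows in the controls was 85.9. It fell to 71.9 with the minimum score of 100 and to 69.6 with equal list lengths, where by construction the weak peaks are gone from the list. For the shPU.1 libraries no such mean could be given with that minimum score or with narrowed windows, because 1 window or more had no peak. The percentile difference of -4.60 in kept regions reversed to 12.2 with equal list lengths (4.36 over the genome). Without shPU.1 replicate 1 it reversed to 0.65 (1.16 over the genome). It ran from -6.20 to 0.65 with 1 library left out (-8.48 to 1.16 over the genome), and the cause was not tested.

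With the replicate number as a block, the difference was -11.5 peaks and the mean log2 ratio -1.01, against -1 without it. In the shPU.1 list of the same number, 43.5% and 65.2% of the control peaks of the windows were found. No label ties equal replicate numbers to 1 mouse or day, and the differences between the numbers correlated at 0.105 between the groups over 8666 kept regions.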
